A study of Danio rerio with 6 samples.

Results

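Hypoxia-inducible factors (HIFs) are transcription factors made of an oxygen-sensitive alpha subunit and a stable partner, Arnt. When oxygen is present, prolyl hydroxylases of the Egln family mark the alpha subunit, the von Hippel-Lindau protein Vhl binds it, and it is degraded, while the asparaginyl hydroxylase encoded by hif1an blocks its activation domain. When oxygen is low the alpha subunit persists and raises genes of glucose uptake, blood vessel growth and mitochondrial turnover. It also raises egln3, so that the pathway limits itself. This control acts largely on the protein, so transcript levels of the alpha subunits need not follow pathway activity, whereas those of target genes are commonly read as its output.

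The 10 genes described here are those of 31452 in the files whose symbol was one of hif1ab, hif1al, epas1a and epas1b (alpha subunits), hif1an and egln3 (hydroxylases), and vegfaa, vegfab, ankrd37 and bnip3 (targets). All 10 were found and all 10 passed the filter on low values, which asked for 1 or more in 3 or more libraries. RNA came from intact zebrafish embryos taken 4 days after fertilization and raised in egg water, with no hypoxia treatment named in the labels. Embryos had been injected with a morpholino (an antisense oligomer) that blocks splicing of glut12, a sugar transporter gene listed as slc2a12, or with a control morpholino. Each group has 3 libraries of 10 pooled embryos, called morphant 1 to 3 and control 1 to 3 after the replicate numbers in the titles. A morpholino acts in every cell it reaches and lowers a product without removing the gene. The labels do not tie the pools to clutches, and the spread on which the p-values rest is that between pools, which may be technical in part.

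Values are normalised read counts per gene, divided by a size factor per library and rounded before deposit. Estimated depths were 9490000 to 15170000 reads in morphants and 7550000 to 11610000 reads in controls, the lowest being control 1. The targeted gene slc2a12 had 98, 97 and 90 in morphants, against 160, 145 and 143 in controls, although a splice block need not lower the read count. Control 1 stood apart from the other libraries. Of 17977 genes with a mean of at least 30, 8.17% were lower in control 1 than in every other library by at least 1.5 times, against 1.13% for morphant 1 and 0.117% to 0.245% for the other 4 libraries. All 11 whole-embryo tissue markers that were matched, from muscle, heart, brain, lens, skin, liver, pancreas, connective tissue and vessels, were present in every library, the lowest value being 195 for the heart gene myl7 in morphant 1.

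These tissue markers were not level between the groups. At an unadjusted limma p of 0.05, 0 of the 11 were higher in morphants and 6 were lower, against 8.99% and 6.93% of all genes, with a median log2 fold change of -0.35, and 0 passed adjustment over all genes. The lower markers were col1a2 (collagen of connective tissue), krt5 (keratin of skin), gfap (glia), myl7, crygn2 (lens crystallin) and mylpfa (fast muscle). Their log2 fold changes were -0.62, -0.55, -0.37, -0.49, -0.35 and -0.33. Every morphant lay below every control for these 6 of the 11 markers, against 10.2% of all genes. As the 6 were picked by p, this separation is in part built in. Among these 6 the largest log2 fold change was that of col1a2, with 14827, 13049 and 13833 in morphants, against 23399, 21289 and 19488 in controls (limma adjusted p = 0.127). The neuronal marker elavl3 ran the other way, with 2310, 2531 and 2416 in morphants, against 737, 1897 and 2106 in controls (log2 fold change 0.75, limma adjusted p = 0.326). Control 1 was by far the lowest library for elavl3. With libraries scaled to equal totals, 1 marker was higher and 4 lower, against 14.5% and 3.05% of all genes. The median of the markers was then -0.24, against 0.11 for all genes. The part of these markers in the values of the hypoxia genes was not tested.

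No member passed adjustment over all genes in either direction (limma, Benjamini-Hochberg adjusted p between 0.238 and 0.958 for the 10 genes), where 6 of 26082 genes did, 0.023% of those tested. At an unadjusted limma p of 0.05, epas1b and epas1a were higher in morphants, 2 of 10 members against 8.99% of all genes, and hif1al was lower, 1 of 10 against 6.93% of all genes. Morphants and controls did not overlap for epas1b (higher in morphants, where 11.6% of all genes did the same) and for hif1ab and hif1al (lower, 10.2% of all genes). With libraries scaled to equal totals, 3 members were higher and 0 lower at that p, against 14.5% and 3.05% of all genes. Counts of 1 to 3 genes are too small to read against these shares. Limma voom on estimated reads also called 0 members after adjustment. In pools of whole embryos, fewer cells of a type and less RNA per cell cannot be told apart.

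**Figure D1:**
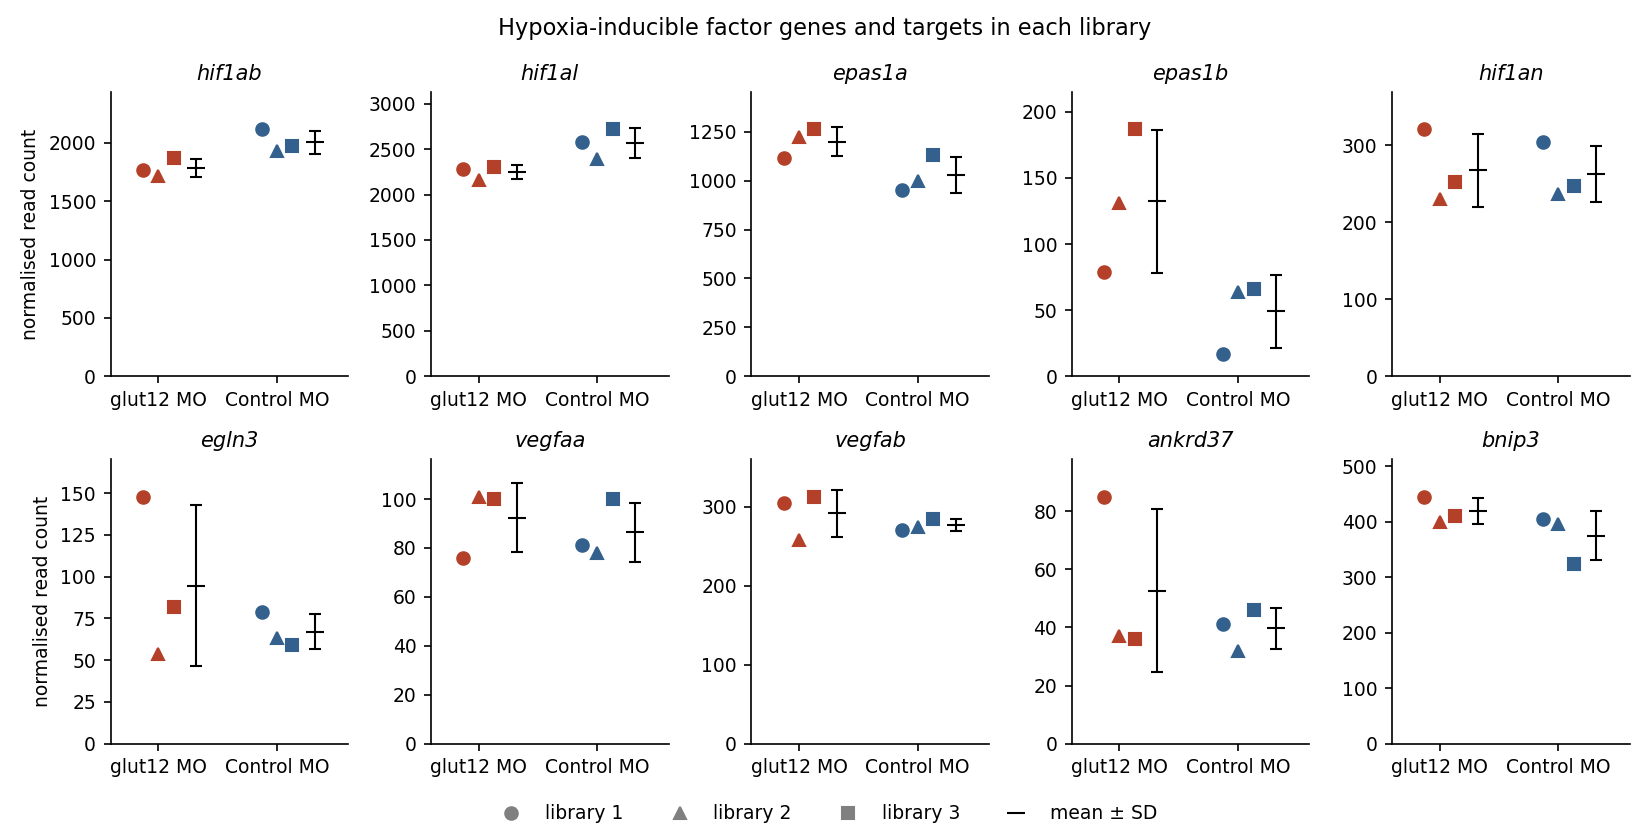
Normalised read count of each of the 10 genes in every library (circles, triangles and squares for libraries 1, 2 and 3), with the mean and SD of each group, glut12 MO on the left and Control MO on the right. The single high circles of egln3 at 148 and ankrd37 at 85 are both morphant 1, and the single low circle of epas1b at 17 is control 1.

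Among the alpha subunits, hif1ab and hif1al were slightly lower in morphants and both epas1 genes were higher. The gene hif1ab (ENSDARG00000034293, chromosome 20 of Zv9), 1 of the zebrafish Hif1a genes, had 1772, 1716 and 1867 in morphants, against 2119, 1933 and 1970 in controls. Every morphant lay below every control, but the gap between the highest morphant and the lowest control was small beside the range within each group. On the log2 scale the difference was -0.17 ± 0.08 (SE, 3 libraries a group; limma adjusted p = 0.330). The gene hif1al (ENSDARG00000041169, chromosome 15), for which the RefSeq gene table also gives the name Hif-3alpha, had 2280, 2157 and 2309 in morphants, against 2579, 2393 and 2722 in controls. Again the groups did not overlap. The log2 fold change of hif1al was -0.19 ± 0.08 (95% interval -0.37 to -0.0047, unadjusted p = 0.0456, limma adjusted p = 0.310). Scaling the libraries to equal totals shifted the all-gene median by 0.11, and these log2 fold changes were then -0.06 for hif1ab and -0.08 for hif1al.

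The gene epas1a (ENSDARG00000008697, chromosome 12), a Hif2a gene, had 1116, 1221 and 1264 in morphants, against 954, 1000 and 1131 in controls. Here control 3 lay above morphant 1, so the groups overlapped. The log2 fold change was 0.22 ± 0.09 (unadjusted p = 0.0431, limma adjusted p = 0.305). Its paralog epas1b (ENSDARG00000057671, chromosome 13) had 79, 131 and 187 in morphants, against 17, 64 and 66 in controls, the widest difference among the 10 genes. All morphants lay above all controls, but the order rested on a narrow gap: morphant 1 at 79 (95% Poisson interval 65.3 to 95.4) and control 3 at 66 (50.4 to 84.6) overlap in counting error. These intervals cover counting error only and come from reads estimated from the size of the rounding step. Control 1 held an estimated 11 reads of epas1b, worth 17 (8.56 to 30.7), below every other library by more than counting error.

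The log2 fold change of epas1b was 1.55 ± 0.52 (95% interval 0.36 to 2.75, unadjusted p = 0.0167, limma adjusted p = 0.238). Without control 1 it was 0.93 (unadjusted p = 0.0242, limma adjusted p = 0.304), and without morphant 3 it was 1.26 (unadjusted p = 0.0597, limma adjusted p = 0.514). Control 1 was the lowest library for 27.2% of all genes tested, and its part in the epas1b difference beyond these values was not tested. Reads could be shared between the epas1 paralogs, or between hif1al and hif1al2, since the counting method is not given in the sources used here. Over 15825 genes with a symbol and a mean of at least 50, the profile nearest to that of epas1b over the 6 libraries, each gene centred on its own mean of log2(value + 1), was that of CU694197.1. It had 50, 77 and 99 in morphants and 8, 36 and 41 in controls, a root mean square difference of 0.12 on the log2 scale. CABZ01112521.1 and STRN followed at 0.18 and 0.20. Like epas1b, all 3 were lowest in control 1 and highest in morphant 3, an order largely built in by choosing them for nearness to epas1b.

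**Figure D2:**
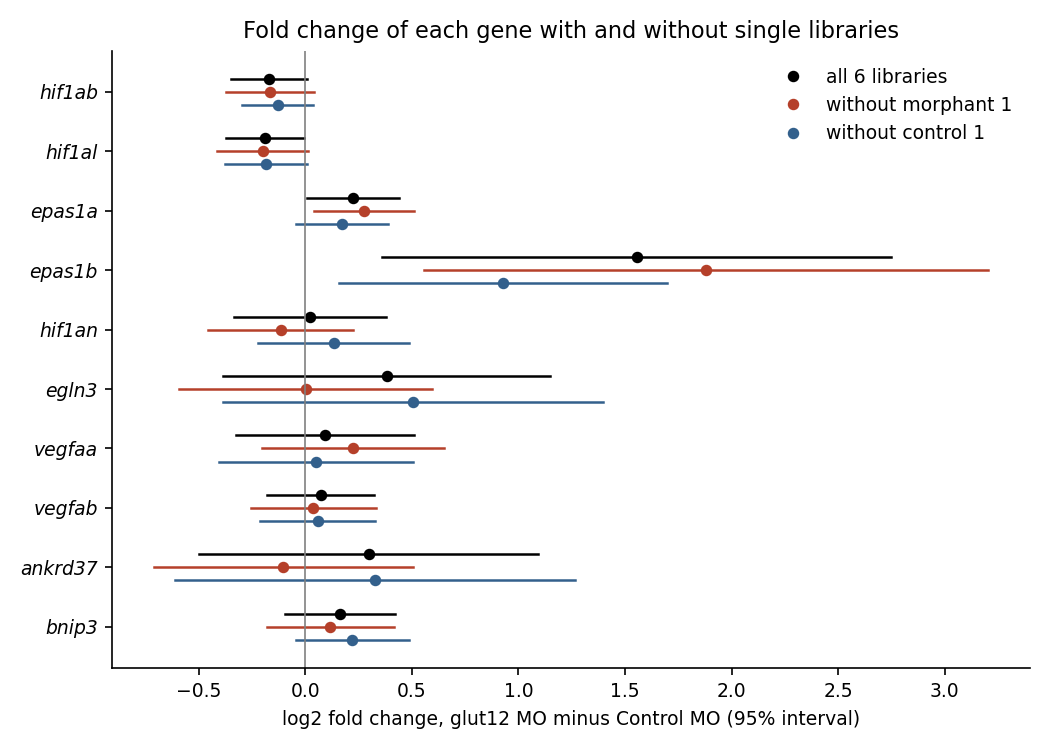
Log2 fold change of each gene on the log2(value + 1) scale, glut12 MO minus Control MO, with its 95% interval from limma, for all 6 libraries (black), without morphant 1 (red) and without control 1 (blue). Without morphant 1 the point of egln3 is at 0.0019, against 0.38 with all libraries, and that of ankrd37 at -0.10, against 0.30. Without control 1 epas1b is at 0.93, against 1.55.

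The ratio of epas1a to hif1ab was computed within each library as a quantity that no scaling between libraries can move apart from rounding. It was chosen after the values were seen and is given without a test. The ratio was 0.630, 0.712 and 0.677 in morphants, against 0.450, 0.517 and 0.574 in controls. Every morphant lay above every control, with means of 0.673 ± 0.04 and 0.514 ± 0.06 (SD, n = 3 each). For epas1a over hif1al the ratio was 0.489, 0.566 and 0.547 in morphants, against 0.370, 0.418 and 0.416 in controls, again with no overlap. The ratio of hif1al to hif1ab did not separate the groups, at 1.29, 1.26 and 1.24 in morphants, against 1.22, 1.24 and 1.38 in controls. An exact permutation test of 3 against 3 libraries could not give a p below 0.1. Since epas1a was already higher in morphants on average, and hif1ab and hif1al lower in every morphant, separation of its ratios to them was in large part built in. The share of other gene pairs whose ratios separate the groups was not computed.

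**Figure D3:**
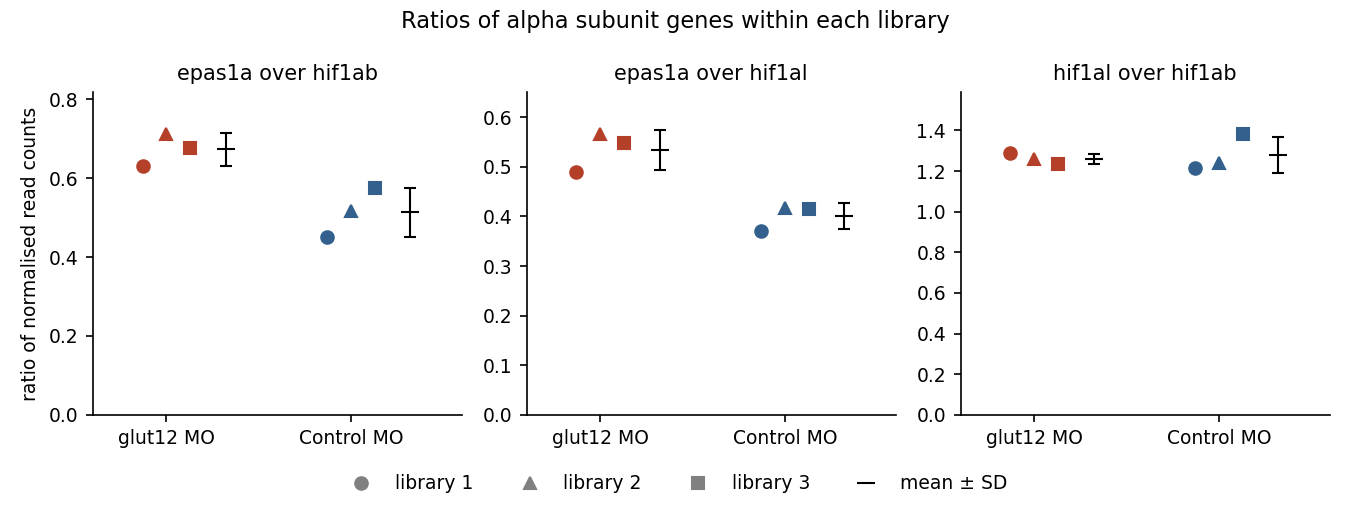
Ratios of normalised read counts of alpha subunit genes within each library, with the mean and SD of each group, glut12 MO on the left. The lowest morphant ratio of epas1a to hif1ab, 0.630, lies above the highest control ratio, 0.574, whereas the ratio of hif1al to hif1ab overlaps between groups.

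The hydroxylase genes hif1an and egln3 showed no shift shared by the 3 morphants. The gene hif1an (ENSDARG00000031915, chromosome 13) had 321, 230 and 252 in morphants, against 304, 236 and 247 in controls. In both groups library 1 was the highest and the other libraries lay close together. Its log2 fold change was 0.02 ± 0.16, with a 95% interval of -0.33 to 0.38 (limma adjusted p = 0.958). The gene egln3 (ENSDARG00000032553, chromosome 17), a prolyl hydroxylase gene that HIF itself induces, had 148, 54 and 82 in morphants, against 79, 63 and 59 in controls. Morphant 1 was 1.80 times the next highest library, while morphant 2 was the lowest of all 6. The value of egln3 in morphant 1 (95% Poisson interval 129 to 169) was higher by more than counting error than in morphant 3 (64.6 to 103). The log2 fold change was 0.38 ± 0.34 with all libraries (limma adjusted p = 0.603) and 0.0019 without morphant 1 (limma adjusted p = 0.998). Without morphant 2 it was 0.72 (unadjusted p = 0.0400, limma adjusted p = 0.551).

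Neither Vegfa gene separated the groups. The gene vegfaa (ENSDARG00000045971, chromosome 16), which encodes the main growth factor for blood vessels, had 76, 101 and 100 in morphants, against 81, 78 and 100 in controls. The groups overlapped fully, and the log2 fold change was 0.09 ± 0.18 (95% interval -0.32 to 0.51, limma adjusted p = 0.832). Its paralog vegfab (ENSDARG00000034700, chromosome 4) had 305, 258 and 313 in morphants, against 271, 274 and 285 in controls. Morphant 2 was the lowest and morphant 3 the highest of the 6 libraries for vegfab, and the log2 fold change was 0.07 ± 0.11 (95% interval -0.18 to 0.32, limma adjusted p = 0.778). These intervals leave room for a change of up to 1.42-fold in vegfaa and 1.25-fold in vegfab. Of the Vegf receptor genes, kdrl, on which Vegfa acts in zebrafish endothelium, had 484, 492 and 465 in morphants, against 488, 420 and 497 in controls. The receptor gene kdr had 93, 159 and 151 in morphants, against 28, 98 and 103 in controls (log2 fold change 0.98, unadjusted p = 0.0696, limma adjusted p = 0.348). Morphant 1 lay below controls 2 and 3, and control 1 was the lowest library.

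The other targets were ankrd37 and bnip3. The gene ankrd37 (ENSDARG00000056376, chromosome 1), an ankyrin repeat gene known as a HIF target in human cells, had 85, 37 and 36 in morphants, against 41, 32 and 46 in controls. As for egln3, morphant 1 alone was high, at 1.85 times the next highest library, and morphants 2 and 3 lay within the range of the controls. Morphant 1 (95% Poisson interval 70.5 to 102) and control 3 (33.6 to 62.5) differed by more than counting error. With all libraries the log2 fold change was 0.30 ± 0.35 (limma adjusted p = 0.706), and without morphant 1 it was -0.10 (limma adjusted p = 0.875). The gene bnip3 (ENSDARG00000045033, chromosome 12), a receptor for the removal of mitochondria, had 445, 400 and 410 in morphants, against 404, 396 and 324 in controls. Control 1 lay above morphant 2, so the groups overlapped, and control 3 was the lowest. The log2 fold change was 0.16 ± 0.11 (limma adjusted p = 0.502). With equal library totals it was 0.28 (unadjusted p = 0.0257, limma adjusted p = 0.233), against a median of 0.11 over all genes.

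Over the 10 genes the median log2 fold change was 0.13, against 0 for all genes tested, and 8 of 10 were above 0, against 50.5% of all genes. The median was 0.020 without morphant 1 and 0.24 with equal library totals, where that of all genes was 0.11. Library by library, relative to the control mean of each gene, the median member stood at 0.20, -0.09 and 0.16 in morphants 1, 2 and 3, and at 0.04, -0.06 and 0.07 in controls 1, 2 and 3. Morphant 2 thus lay below all 3 controls on this measure. Morphant 1 was the highest of the 6 libraries for 4 of the 10 genes (hif1an, egln3, ankrd37 and bnip3), against 13.9% of all genes.

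The wider oxygen-sensing machinery was measured through 20 genes, the 6 alpha subunit and hydroxylase genes above included. The symbols egln1a, hif3a and eloc were also looked for and not found. At an unadjusted limma p of 0.05, 3 of the 20 were higher and 3 lower, against 8.99% and 6.93% of all genes, and the median log2 fold change was -0.07. With equal library totals 4 were higher and 0 lower, against 14.5% and 3.05% of all genes. The median was then 0.04, against 0.11 for all genes. The number lower was 1 without the limma trend, without morphant 3, without control 1 or without control 3, and the number higher was 1 without morphant 3. Calls over all genes at that p moved too, between 1173 and 3793 higher and between 795 and 2239 lower across the 17 alternatives. The second Hif1a gene, hif1aa, had 91, 109 and 130 in morphants, against 148, 114 and 130 in controls, and hif1al2 had 72, 60 and 48 against 48, 64 and 65 in controls, so both overlapped between groups. The prolyl hydroxylase gene egln2 had 46, 63 and 50 in morphants, against 8, 23 and 39 in controls (log2 fold change 1.38, unadjusted p = 0.0219, limma adjusted p = 0.258). As for epas1b, control 1 was by far the lowest library. Its relative egln1b (listed as egln1), the main oxygen sensor of the family in mammals, had 353, 242 and 292 in morphants, against 360, 307 and 282 in controls, and vhl had 70, 57 and 41 against 61, 52 and 56 in controls. The partner gene arnt had 161, 197 and 190 in morphants, against 65, 144 and 171 in controls, and arnt2 had 1915, 2293 and 2284 against 1885, 1891 and 2112 in controls. Control 1 was by far the lowest library for arnt. In the Vhl ubiquitin ligase, elob (listed as tceb2), which encodes elongin B, had 1630, 1571 and 1612 in morphants, against 2155, 1842 and 1869 in controls (log2 fold change -0.28, unadjusted p = 0.0102, limma adjusted p = 0.217). The RING subunit gene rbx1 had 283, 272 and 218 in morphants, against 390, 290 and 325 in controls (log2 fold change -0.38, limma adjusted p = 0.284). The gene cul2 of this ligase had 353, 368 and 333 in morphants, against 428, 385 and 386 in controls (log2 fold change -0.18, limma adjusted p = 0.377). For elob, rbx1 and cul2 every morphant lay below every control, as for 10.2% of all genes. As elob and rbx1 were picked by p, and cul2 after its values were seen, this separation is in part built in. Of all 20 genes, 5 had every morphant below every control and 2 had every morphant above, against 10.2% and 11.6% of all genes. The elongin C genes of the same ligase overlapped, with 97, 101 and 93 in morphants, against 123, 91 and 100 in controls for tceb1a, and 460, 489 and 448 against 681, 421 and 558 in controls for tceb1b.

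Among targets of glucose uptake and glycolysis 0 genes passed adjustment. Of 22 genes measured, 2 were higher and 3 lower at an unadjusted limma p of 0.05, against 8.99% and 6.93% of all genes, the median log2 fold change was -0.13, and the groups did not overlap for 9 of 22, against 21.8% of all genes. With equal library totals 4 were higher and 0 lower, against 14.5% and 3.05% of all genes. The median was then -0.02, against 0.11 for all genes. The number lower was 0 without the limma trend and 1 without morphant 2 or without morphant 3. Across the alternatives the number lower over all genes also moved, between 795 and 2239. The genes higher at that p encode kinases that shut off pyruvate dehydrogenase. The gene pdk2b, listed as pdk2, had 258, 584 and 547 in morphants, against 249, 195 and 163 in controls, and pdk3a had 106, 99 and 111 against 17, 55 and 67 in controls (log2 fold changes 1.12 and 1.38, limma adjusted p = 0.198 and 0.232). For pdk2b morphant 1 lay far from the other morphants and close to control 1. For pdk3a control 1 was by far the lowest library. In contrast pdk1, the classical HIF target of that family in mammals, had 149, 141 and 141 in morphants, against 97, 125 and 151 in controls. The genes lower at that p were ldha (lactate dehydrogenase), with 3694, 3836 and 4049 in morphants, against 5205, 4194 and 4813 in controls, gapdh and hk1 (log2 fold changes -0.29, -0.26 and -0.18, limma adjusted p = 0.238, 0.304 and 0.303). The glucose transporter gene slc2a1a had 147, 180 and 158 in morphants, against 153, 150 and 179 in controls.

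**Figure D4:**
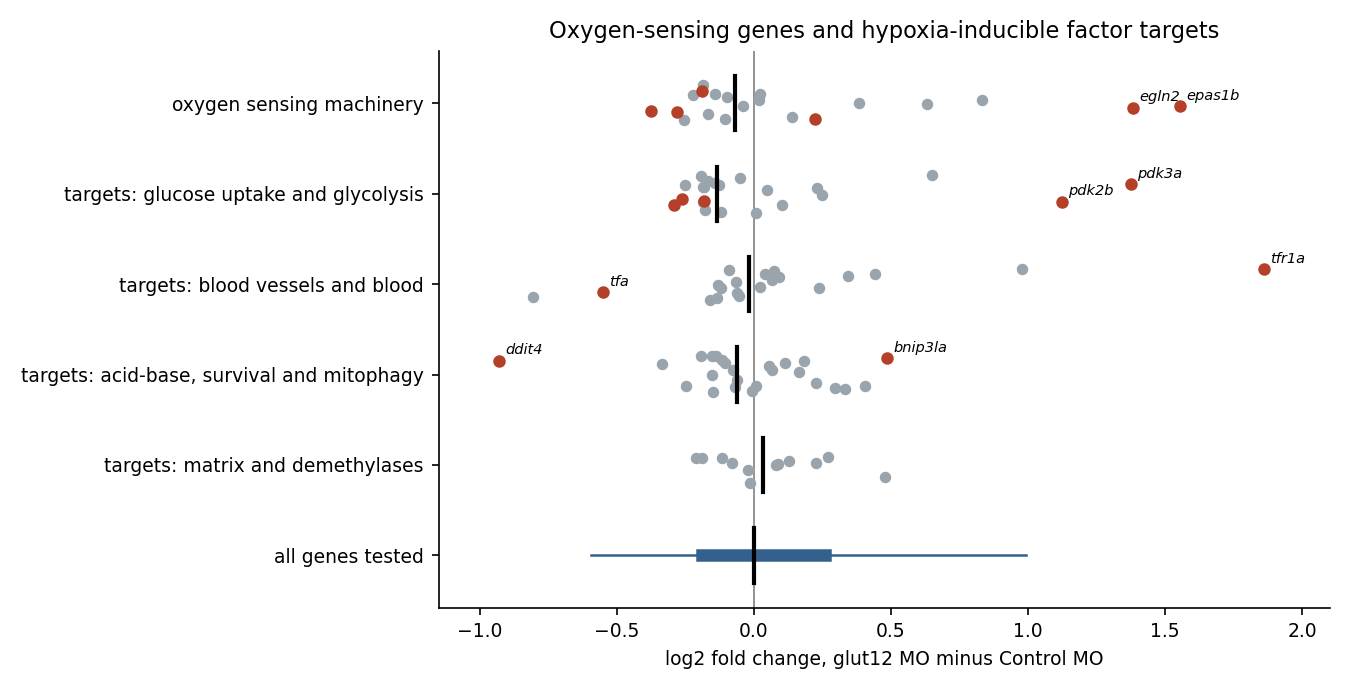
Log2 fold change of each measured gene of 5 lists, glut12 MO minus Control MO, in red where the unadjusted limma p was under 0.05 and named where such a gene lay beyond 0.4, with the list's median as a black bar. The blue bar at the bottom gives the 25th to 75th and the thin line the 5th to 95th percentile of all genes tested, -0.59 to 0.99, and the medians of the lists lie between -0.13 and 0.03.

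Among 20 targets of blood vessels and blood, 1 was higher and 1 lower at an unadjusted limma p of 0.05, against 8.99% and 6.93% of all genes, with a median log2 fold change of -0.02. Both genes belong to iron transport. With equal library totals 1 was higher and 1 lower, against 14.5% and 3.05% of all genes. The median was then 0.096, against 0.11 for all genes. The number higher was 0 with robust empirical Bayes, and 2 with the replicate block or without control 3. With library weights, or with control 1 and morphant 1 both left out, 2 were higher and 2 lower. Across the alternatives 1173 to 3793 of all genes were higher. Transferrin, tfa, had 9169, 8032 and 9301 in morphants, against 13742, 12805 and 12251 in controls (log2 fold change -0.55, limma adjusted p = 0.127). The transferrin receptor gene tfr1a had 90, 132 and 126 in morphants, against 9, 50 and 62 in controls (log2 fold change 1.86, limma adjusted p = 0.235), once more with control 1 the lowest. Erythropoietin, epo, a hallmark HIF2 target in mammals, had 79, 58 and 73 in morphants, against 53, 65 and 59 in controls. Of 10 endothelium markers 0 were higher and 1 lower at that p, against 8.99% and 6.93% of all genes. The lower gene was the angiopoietin receptor gene tek, with 67, 58 and 71 in morphants, against 101, 105 and 113 in controls. Of 8 erythroid markers 1 was higher at that p, hbbe3, and 2 were lower, hbbe2 and alas2, again against 8.99% and 6.93% of all genes. The globin gene hbbe3 had 45, 112 and 41 in morphants, against 6, 4 and 1 in controls (log2 fold change 3.87, limma adjusted p = 0.115). The log2 fold changes of hbbe2 and alas2 were -0.87 and -0.32 (limma adjusted p = 0.197 and 0.298). The number of erythroid markers lower was 1 with equal library totals, without the limma trend, or without any 1 of morphant 2, morphant 3, control 1 and control 2. With equal library totals 3.05% of all genes were lower. Across the alternatives 795 to 2239 of all genes were lower. Globin copies may share reads, which makes their values uncertain.

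Of 25 targets in acid-base balance, survival and mitophagy, 1 was higher and 1 lower at an unadjusted limma p of 0.05, against 8.99% and 6.93% of all genes, with a median log2 fold change of -0.06. With equal library totals 4 were higher and 1 lower, against 14.5% and 3.05% of all genes. The median was then 0.05, against 0.11 for all genes. The number higher was 0 without morphant 2 or without morphant 3, and 2 were lower without morphant 1. The higher gene was bnip3la, a relative of bnip3 with the same role in removing mitochondria, at 110, 147 and 132 in morphants, against 84, 85 and 108 in controls (log2 fold change 0.49, limma adjusted p = 0.256). Every morphant was above every control, by a margin of 110 to 108 at its narrowest. The lower gene was ddit4, an inhibitor of mTOR signalling that also answers to glucocorticoids, at 152, 120 and 148 in morphants, against 332, 252 and 225 in controls (log2 fold change -0.93, limma adjusted p = 0.147). Carbonic anhydrase ca9, a widely used hypoxia marker in mammals, had 47, 73 and 76 in morphants, against 72, 81 and 91 in controls. Among 12 targets in matrix modification and histone demethylation 0 were higher and 0 lower at that p, and the median was 0.03. Morphant 1 was the highest library for 6 of 12, against 13.9% of all genes. In the other lists it was highest for 1 of 22 (glucose uptake and glycolysis), 4 of 20 (blood vessels and blood) and 8 of 25 (acid-base, survival and mitophagy). Of the oxygen-sensing genes it was highest for 4 of 20. Without morphant 1, 2 of these 12 were lower at that p, and without control 3 or with equal library totals 1 was higher. With equal library totals 14.5% of all genes were higher. Beside the counts of both lists with 1 library left out, 1173 to 2783 of all genes were then higher and 1109 to 1823 lower.

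**Figure D5:**
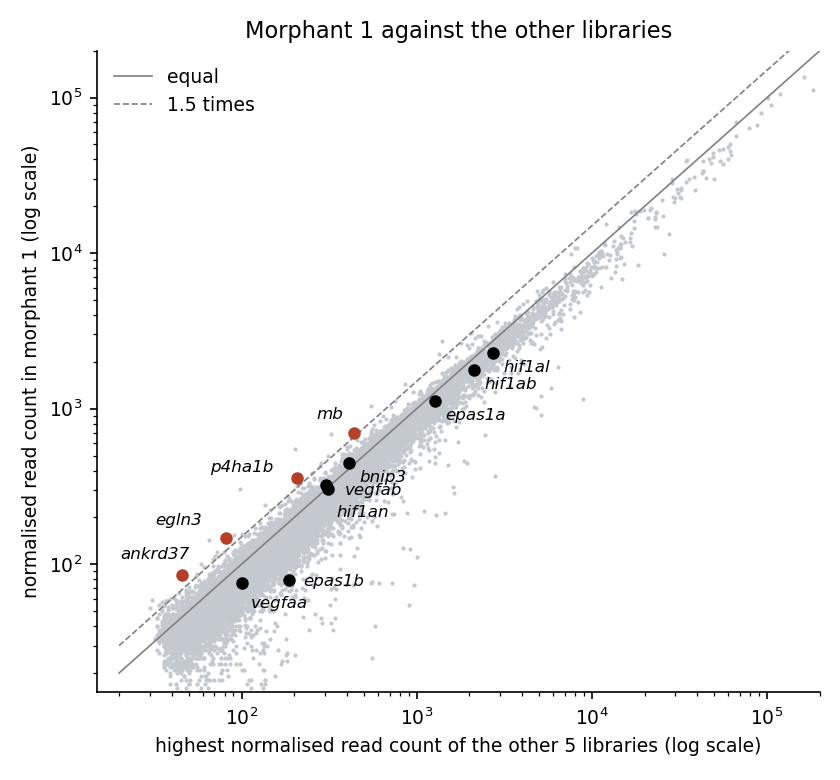
Normalised read count in morphant 1 against the highest of the other 5 libraries for 17977 genes with a mean of at least 30 (log scales), with the line of equality and, dashed, the line of 1.5 times. The genes egln3, ankrd37, p4ha1b and mb lie above the dashed line and the other 8 genes of the 10 lie below it.

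The high values of egln3 and ankrd37 in morphant 1 were set against the same measure in all genes. The measure was chosen after the values were seen, so the ranks are a description only. Of 17977 genes with a mean of at least 30, 45 (0.25%) were at least 1.5 times as high in morphant 1 as in every other library, and ankrd37 and egln3 ranked 8 and 9 by that ratio. Over all 26082 genes tested, with no minimum on the mean, 291 (1.12%) met the same rule. The collagen prolyl 4-hydroxylase gene p4ha1b, from the matrix list, was another of the 45, with 356 in morphant 1, against 182 to 208 in the other 5 libraries. The remaining members stood at ratios of 1.09 (bnip3), 1.06 (hif1an) and 0.42 to 0.97. Among the same 17977 genes, other libraries had 12 and 15 such genes (morphants 2 and 3) and 125, 4 and 15 (controls 1, 2 and 3). Most of the pigment cell genes looked at were also highest in morphant 1. Of 10 pigment cell genes found of 12 looked for, 8 were highest there, against 13.9% of all genes tested. The exceptions were sox10, at 369 in morphant 1 and 433 in control 2, and mitfa, at 28 in morphant 1 and 30 in morphant 3. The pigment list was chosen after the values were seen, so the count is a description only. The summed value of the 10 pigment genes was 8100 in morphant 1, 3456 and 3842 in morphants 2 and 3, and 4420 to 4631 in controls. The largest values in the morphant 1 sum were those of tyrp1b (2729), pmela (2651) and dct (1041). The part of the pigment genes in the egln3 and ankrd37 values was not tested.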

How the data were processed

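The authors deposited 1 table per library with a chromosome, a symbol, an Ensembl ID and a value for 31452 genes. The deposited unit is a score. From the values and the last line of each table, which names size factors but gives none, these are read counts divided by a library size factor and rounded. Per the submitters' processing notes the build was Zv9. For the aligner and the counting, the sources used here name no tool. The worth of 1 read (0.7081 to 1.5581) was estimated from low whole numbers left unused or used doubly, and depth is the total divided by it, so precision is lowest in control 1.

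The plan named limma for normalised values and a count test for raw counts. Because the values are not raw counts, limma was used. Values of 26082 genes (at least 1 in at least 3 libraries) were compared as log2(value + 1) with limma 3.58.1 (R 4.3.3). The model held only the group, with a trend of variance on mean, two-sided p-values and Benjamini-Hochberg adjustment over all genes. Fold changes are morphant minus control, with SE, on that scale, which understates changes of low genes. Figures and Poisson intervals were made in Python 3.11.15.

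Members, lists and tests were chosen with earlier results of these data known. Of each list, genes under an unadjusted p of 0.05 (at most 6) are named, with arnt, egln1b, egln2, vhl, slc2a1a, ldha and pdk1. Other genes in the text were chosen after their values were seen. Symbols were matched to the files or through synonyms in the RefSeq gene table (assembly GRCz12tu, names only). In the target lists, in the order of the text, 22 of 26, 20 of 28, 25 of 28 and 12 of 20 entries were matched and used. Alternatives were other scalings, filters, pseudocounts and empirical Bayes settings, library weights, the replicate block and libraries left out.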

Additional observations from a re-analysis of the deposited data

How the results depend on the processing

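No member passed an adjusted p of 0.05 under any of 17 alternatives, and 164 of 170 values of a member's log2 fold change kept their direction. The other 6 were of hif1an and ankrd37. With 1 library left out in turn, hif1an ranged from -0.11 to 0.13 and ankrd37 from -0.10 to 0.51, and with control 1 and morphant 1 both left out, a choice made after seeing the data, they were -0.0041 and -0.071. The number of members higher at an unadjusted p of 0.05 was 2, 3 with equal library totals, 1 without the limma trend, and 0 to 2 with 1 library left out. The number lower was 1, 0 to 1 with 1 library left out, and 0 with equal library totals, without the trend, with the robust step, or with control 1 and morphant 1 both left out. Over all genes 1173 to 2783 were higher and 1109 to 1823 lower at that p with 1 library left out. Across the 17 alternatives the ranges were 1173 to 3793 and 795 to 2239.

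Over all genes 6 passed the adjusted p, 1 to 5 with 1 library left out, 11 with equal totals, 14 with a minimum of 10, 2 with a pseudocount of 0.1, 30 without the trend, 51 with the robust step, 329 with library weights, 41 with voom on estimated reads (chosen after seeing the data) and 0 with control 1 and morphant 1 both left out. With the replicate block 2 passed, and epas1b had an unadjusted p of 0.0011 (limma adjusted p = 0.186). Deviations from the group mean correlated across 15942 genes, which are not independent replicates, at 0.10, -0.06 and 0.12 for same-numbered libraries. For libraries of unlike number the correlations ranged from -0.23 to 0.21. Since deviations within a group are tied to each other, these values cannot settle whether the numbers pair the libraries. With equal totals the unadjusted calls split into 3793 higher and 795 lower, against 2346 and 1808. Depth limits epas1b, egln3, vegfaa and ankrd37 most, at 11 to 209 estimated reads a library.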

Other observations

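The 45 genes at least 1.5 times as high in morphant 1 as in every other library held further genes a reader may want to inspect, all chosen after their values were seen. The oxygen-binding gene mb (myoglobin) had 694 in morphant 1, 262 and 349 in morphants 2 and 3, and 438, 426 and 389 in controls. The zinc transporter gene slc30a8, known from islet beta cells in mammals, led the ranking with 304 in morphant 1, against 75 and 98 in morphants 2 and 3 and 69, 75 and 59 in controls. The melanosome gene pmelb followed with 548 in morphant 1, 141 and 140 in the other morphants and 157, 201 and 162 in controls. The terminal complement gene c9 had 3088 in morphant 1, 1605 and 1968 in the other morphants and 2030, 1935 and 1688 in controls. Of 7 complement genes found of the 11 looked for, 6 were highest in morphant 1, against 13.9% of all genes tested. This list too was chosen after the values were seen. For c5 the margin was narrow, at 610 in morphant 1 and 586 in control 2.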
